A study of Rattus norvegicus with 8 samples.

Results

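Solute carriers are membrane proteins that move small molecules and ions across membranes without hydrolysing ATP, and the genes described here are those of the deposited expression table whose symbol begins with Slc and a family number. Of 183 such rows, the 31 of the mitochondrial carrier family SLC25 and 11 of named carriers of glucose, lactate, granule zinc and amino acids, such as Slc2a2 and Slc7a2, were set aside by rule, which left 141 genes of the 10692 in the table. The symbols of 139 members were current in the RefSeq gene table (GRCr8), and 2, Slc9a3r1 and Slc9a3r2, were older names of Nherf1 and Nherf2. Their RNA was measured in islet cells of Sprague Dawley rats at 10 days of age, which were dispersed, kept in culture and then given oligonucleotides of locked nucleic acid (LNA) by transfection. For the 4 control libraries the dose was 60 pmol of a control LNA inhibitor. For the 4 inhibitor libraries it was 20 pmol of each of the LNA inhibitors against tiRNA-5 HisGTG, GluCTC and GluTTC, 60 pmol in total, and these targets are the fragments left at the 5′ side of cut histidine and glutamate tRNAs. The labels name no genetic change in any group, and whether replicates stem from separate litters or cultures is not stated, so each p-value reflects only how these libraries vary, which may be technical.

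Carriers work by alternating their binding site between both sides of a membrane, either letting a solute run down its gradient or coupling it to the flow of sodium, protons or another ion. In islet endocrine cells they bring in amino acids and sugars, set intracellular chloride, pH and calcium, load zinc and transmitters into secretory vesicles, and supply the Golgi with the activated sugars used on secreted proteins. By what is known of them, the members reach beyond the plasma and vesicle membranes: many sit in the endoplasmic reticulum, Golgi or lysosome, Slc8b1 and Slc30a9 act in mitochondria, and Slc4a1ap, Slc9a3r1 and Slc9a3r2 are adaptor proteins named after carriers.

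Levels are given in RPKM, which divides a gene's reads by its length in kilobases and by the size of the library, and between 16035607 and 19049788 reads fell in the listed genes of each library. The member with the fewest reads had 30 in 1 library, and the median over members of the lowest count in any library was 607. Each row of the table had a mean of at least 1 RPKM in both groups, so carriers below that level were not analysed here. The 8 libraries held islet hormone RNA in abundance, with 9 of 10 beta-cell markers and 7 of 8 alpha-cell markers listed, and the summed level of 7 listed mesenchymal markers was between 1583 and 3856 RPKM in control and between 2108 and 3260 RPKM in inhibitor libraries. Control 1 and inhibitor 4 stood apart from the rest. Control 1 had the lowest mesenchymal sum (1583 RPKM) and the highest sum of 3 delta-cell markers (1061 RPKM, against 413 to 838 RPKM in the other libraries). Inhibitor 4 had the lowest sum of 9 beta-cell markers (159076 RPKM, against 202650 to 255323 RPKM elsewhere). Insulin RNA made up most of that sum (Ins1 100678 and Ins2 48838 RPKM). Slc2a2 and Pdx1 were not lowest there (554 and 66.6 RPKM, against 414 and 64.9 RPKM in the lowest controls). The other listed beta-cell markers were. Y-linked Eif2s3y was at 0.257 RPKM in inhibitor 4 against 6.86 to 18.8 RPKM elsewhere. Kdm5d was at 0.12 against 2.77 to 8.73 RPKM. Ddx3y went the other way, at 1.42 against 0.909 to 1.39 RPKM. What lies behind the Y-linked values was not tested. For the cell-type markers, fewer cells of a type and less RNA per cell cannot be told apart in such bulk samples.

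A pair of amino acid carriers, Slc38a5 and Slc38a4, held 30.5% of the summed RPKM of the 141 members. All 24 amino acid carriers together held 39.5%, although their median of 8.58 RPKM was below that of all members. Slc38a5, a sodium-coupled transporter of glutamine and other neutral amino acids that in the mouse is known for its part in alpha-cell growth, had by far the highest level. It was at 708, 669, 923 and 551 RPKM in control libraries 1 to 4 and 553, 603, 733 and 523 RPKM in inhibitor libraries 1 to 4. Control 3 was the highest and inhibitor 4 the lowest, and the groups overlapped. This gene alone made up 23.4% of the summed RPKM. Slc38a4, a carrier of the same family that transports neutral and some cationic amino acids, followed at 279, 177, 185 and 169 RPKM in the controls and 189.9, 198, 191 and 202 RPKM with inhibitor. Control 1 stood above the other 7 libraries, which kept between 169 and 202 RPKM. The third was Slc35b1, which exchanges ATP for ADP across the membrane of the endoplasmic reticulum, at 117, 102, 116 and 96.03 RPKM in the controls and 105, 104, 102 and 103 RPKM with inhibitor. These 3 were the only members with a mean over 100 RPKM, and 62 lay between 10 and 100 RPKM and 76 below 10 RPKM. The median member was at 8.98 RPKM, and the median row of the whole table was at 9.96 RPKM.

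**Figure D1:**
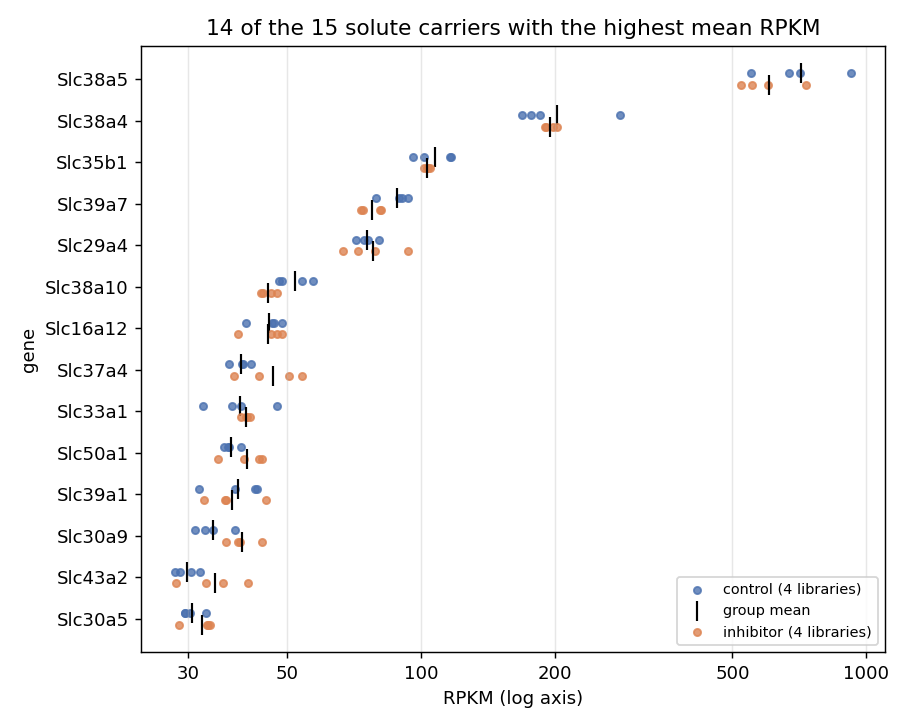
RPKM (log axis) of 14 of the 15 solute carriers with the highest mean over 8 libraries; each point is a library and each bar the mean of a group of 4. Slc38a5 lies between 523 and 923 RPKM in all libraries, and in Slc38a10 all inhibitor points lie below all control points.

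Below these came carriers of the secretory pathway, of metals and of monoamines, ordered here by level per length of gene. Slc39a7, which releases zinc from the endoplasmic reticulum, had a mean of 82.8 RPKM over 8 libraries, and Slc29a4, a plasma membrane transporter of serotonin and other monoamines, 76.8 RPKM. In control cells these levels were 88.2 ± 6.18 and 75.6 ± 3.77 RPKM (SD, n = 4) and in inhibitor cells 77.5 ± 4.34 and 77.9 ± 11.7 RPKM (SD, n = 4), so their order did not exceed the spread with inhibitor. Slc38a10, Slc16a12 and Slc37a4 followed, with means between 42.998 and 48.7 RPKM. Together the 15 most abundant members held 54.1% of the summed RPKM.

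No carrier differed between inhibitor and control cells at the adjusted threshold. On the log2(RPKM + 1) scale, limma called 0 of the 141 members at an adjusted p under 0.05, where it called 0% of all 10688 genes tested, and limma-voom, run on reads recovered from the RPKM, called 0 members as well. The smallest adjusted p among the members was 0.541. At an unadjusted p under 0.05, limma listed 16 members (11.3%), against 8.98% of all genes tested, and limma-voom 17, against 9.29%. Of the 16, 7 lay higher with inhibitor (4.96%, against 5.52% of all genes) and 9 lower (6.38%, against 3.46%). These counts moved with scaling, since with median-of-ratios scaling 4 lay higher (2.84%, against 4.2% of all genes) and 14 lower (9.93%, against 5.05%). Under both scalings the higher share lay below that of all genes and the lower share above it, which was not tested. Without inhibitor 3 the split was 13 higher and 5 lower (11.6% of all genes in either direction). The 2 groups did not overlap for 6 members (4.26%), against 5.31% of all genes, of which 3 were higher with inhibitor (2.13%, against 3.7% of all genes) and 3 lower (2.13%, against 1.61%), and shares this near the background are no result about the carriers. Smaller groups overlap less by construction, and leaving out 1 library gave between 7 and 18 such members: 18 without control 1 (11.7% of all genes), 18 without inhibitor 4 (8.99%), 16 without control 4 (11.6%) or inhibitor 3 (12%), 14 without inhibitor 2 (10.4%) and 12 without control 3 (8.37%). Without both control 1 and inhibitor 4 it was 37 (20.9%). The median log2 fold change of the members was -0.02, beside 0.02 over all genes, and 64 members had a positive and 77 a negative value (56 and 85 with median-of-ratios scaling). Over all genes 5802 of 10688 were positive, and 5300 of 10687 with median-of-ratios scaling. The count was 5521 of 10678 without inhibitor 4 and 5205 of 10666 without both control 1 and inhibitor 4. These are the background for the signs counted below in each role and family. The 95% confidence interval of a member's log2 fold change reached a median of 0.21 to either side. Without control 2 the number at an unadjusted p under 0.05 was 3, and without inhibitor 1 it was 5, where the share over all genes was 4.63% and 3.95%. Without both control 1 and inhibitor 4 it was 26, where the share over all genes was 15.9%.

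**Figure D2:**
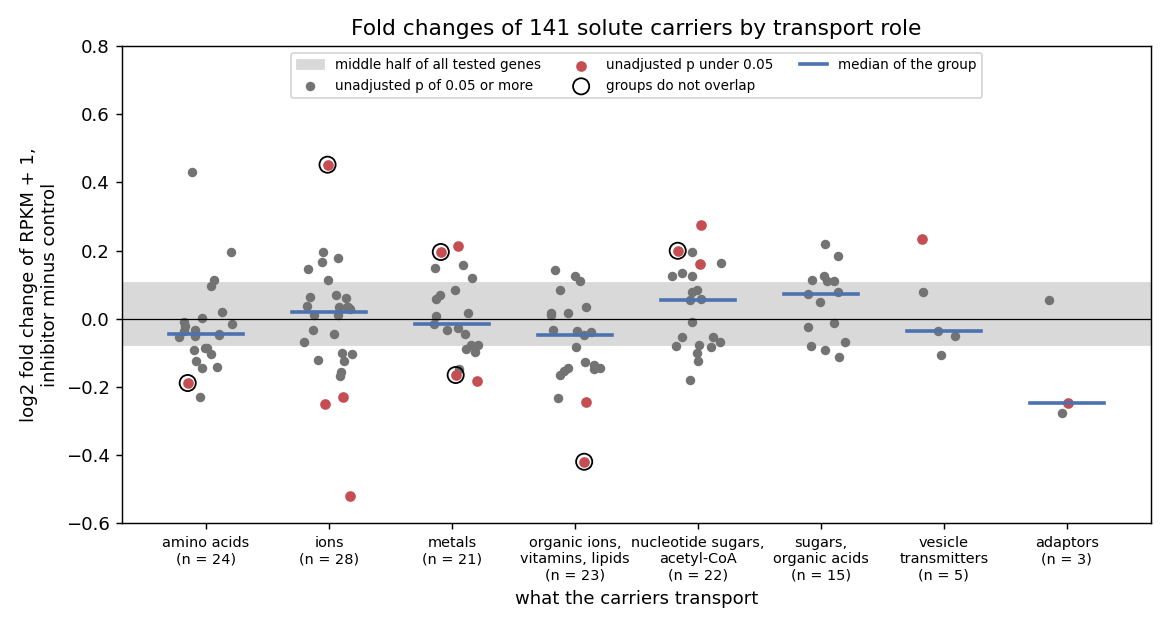
Log2 fold change (inhibitor minus control, log2(RPKM + 1) scale) of each of the 141 solute carriers, grouped by transport role. Roles were assigned by carrier family apart from the adaptors, so a role can hold carriers of other substrates. The grey band is the interquartile range of all tested genes and blue bars are group medians. Apart from the 3 adaptors, the group medians lie between -0.05 and 0.07, and the 6 ringed genes, whose groups do not overlap, are spread over 5 of the 8 roles.

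Among the 28 ion carriers, 16 had a log2 fold change above 0 and 12 below (median 0.02; 14 and 14 with median-of-ratios scaling), and 1 member lay higher and 3 lower at an unadjusted p under 0.05 by limma, beside 5.52% and 3.46% of all genes. The same shares are the background for the counts at this threshold in the other roles.

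Slc12a2 encodes NKCC1, the cotransporter that brings chloride in with sodium and potassium, and lay lower with inhibitor. It was at 28.4, 16.04, 14.3 and 12.4 RPKM in control libraries 1 to 4 and 11.9, 9.62, 11.8 and 12.8 RPKM in inhibitor libraries 1 to 4. Control 1 was the highest by far, and the groups overlapped only through control 4, which lay below inhibitor 4. The log2 fold change was -0.52 ± 0.21 (SE) with limma's unadjusted p = 0.035, and without control 1 it was -0.28. The delta-cell marker sum was also highest in control 1, and its part in the result was not tested. Another cotransporter of the family, Slc12a7 (KCC4), was at 12.3 ± 1.18 RPKM across controls and 11.2 ± 0.718 RPKM across inhibitor libraries (SD, n = 4).

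Sodium-proton exchangers, which export acid, were measured for 7 genes. Slc9a7, an exchanger of the trans-Golgi, was at 4.13 ± 0.282 RPKM across controls and 4.89 ± 0.593 RPKM across inhibitor libraries (SD, n = 4; limma, unadjusted p = 0.0564). Slc8b1, which carries calcium out of mitochondria in exchange for sodium, was at 6.202, 5.29, 4.23 and 5.12 RPKM in the controls and 4.23, 4.06, 3.96 and 4.55 RPKM with inhibitor. Only control 3 fell inside the inhibitor range (log2 fold change -0.25 ± 0.10 (SE); limma, unadjusted p = 0.0329), and without control 1 the log2 fold change was -0.17. Slc8a1, the sodium-calcium exchanger of the plasma membrane, was more abundant at 27.1 ± 0.909 RPKM across controls and 28.6 ± 4.48 RPKM across inhibitor libraries (SD, n = 4).

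Carriers of bicarbonate and phosphate lay close between the groups. Slc4a2, which exchanges chloride for bicarbonate, was at 22.7 ± 1.58 RPKM across controls and 20.3 ± 1.73 RPKM across inhibitor libraries, and Slc4a7, a sodium-bicarbonate cotransporter, at 5.802 ± 0.858 RPKM across controls and 6.67 ± 0.564 RPKM across inhibitor libraries (SD, n = 4). Slc4a4, another sodium-bicarbonate cotransporter known from pancreatic duct, was at 4.36 ± 0.404 RPKM across controls and 4.49 ± 0.372 RPKM across inhibitor libraries (SD, n = 4). The phosphate carriers Slc20a1 and Slc20a2 were at 28.03 ± 4.66 RPKM across controls and 31.6 ± 5.96 RPKM across inhibitor libraries and at 9.42 ± 1.54 RPKM across controls and 9.61 ± 0.637 RPKM across inhibitor libraries respectively (SD, n = 4). Slc26a6, an anion exchanger, was at 4.403 ± 0.318 RPKM across controls and 3.97 ± 0.276 RPKM across inhibitor libraries, and Slc24a3, a potassium-dependent sodium-calcium exchanger, at 2.02 ± 0.487 RPKM across controls and 1.82 ± 0.568 RPKM across inhibitor libraries (SD, n = 4). None of these 7 reached an unadjusted p under 0.05 by limma.

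**Figure D3:**
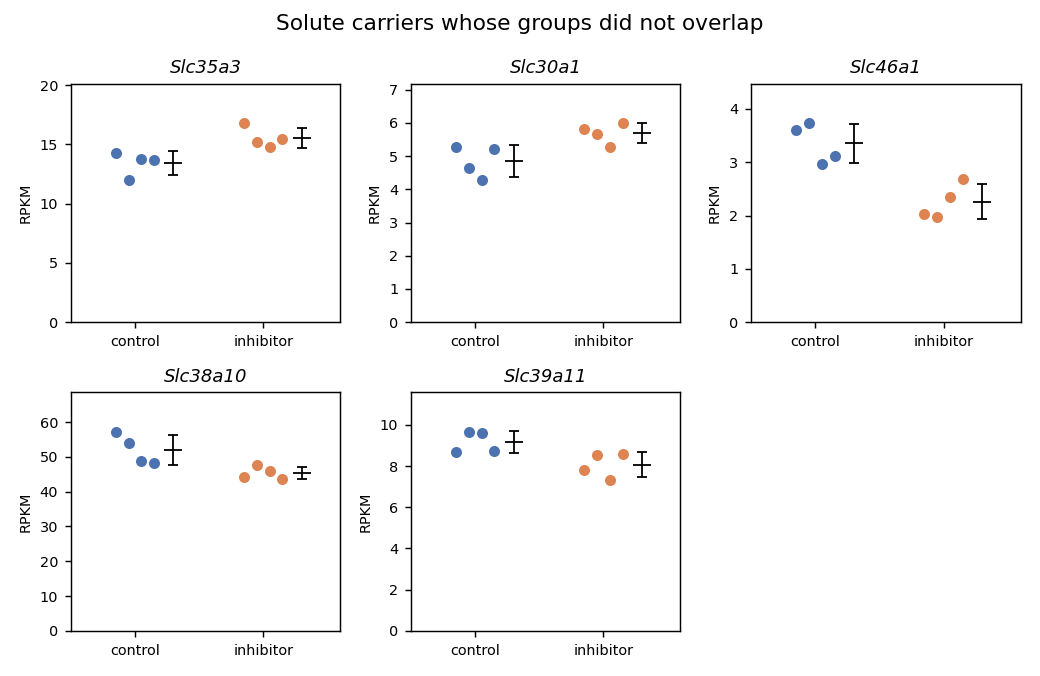
RPKM of 5 of the 6 solute carriers whose control and inhibitor values did not overlap, 1 point per library with the mean and SD (n = 4) beside each group. Slc46a1 runs from 2.97 to 3.73 RPKM in control and from 1.97 to 2.68 RPKM in inhibitor libraries, while the narrowest gaps, in Slc30a1 and Slc39a11, are far smaller than the SD.

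Zinc enters the cytosol through carriers of family SLC39 and leaves it, to the outside or into organelles, through family SLC30. Of the 8 SLC39 members, 7 had a negative log2 fold change (median -0.08), and of the 6 SLC30 members 5 had a positive one (median 0.10), beside 54.3% positive over all genes. These counts were the same with median-of-ratios scaling and with limma-voom, and leaving out control 1 together with inhibitor 4 gave 8 of 8 negative and 4 of 6 positive. Some other families of similar size were also uneven, with 1 of 6 positive in SLC12, 5 of 6 in SLC4 and 2 of 8 in SLC38. The imbalance is thus not particular to the zinc carriers, and it was not tested. Slc30a1 exports zinc across the plasma membrane and is a textbook target of the zinc sensor MTF-1. It was at 5.26, 4.66, 4.27 and 5.21 RPKM in control libraries 1 to 4 and 5.83, 5.66, 5.28 and 5.99 RPKM in inhibitor libraries 1 to 4. The inhibitor values all lay above the controls, by a margin of 0.0130 RPKM between control 1 and inhibitor 3. Its means were 4.85 ± 0.472 RPKM across controls and 5.69 ± 0.306 RPKM across inhibitor libraries (SD, n = 4; log2 fold change 0.20 ± 0.08 (SE); limma, unadjusted p = 0.0352). Slc39a7 was at 90.7, 89.5, 93.4 and 79.3 RPKM in control libraries 1 to 4 and 74.1, 81.5, 80.98 and 73.3 RPKM in inhibitor libraries 1 to 4. Control 4 lay within the inhibitor range and the other 3 controls above it (log2 fold change -0.18 ± 0.07 (SE); limma, unadjusted p = 0.026).

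The sequences upstream of these zinc carriers are shown because MTF-1 binds a metal response element, searched here as TGCNCNC on both strands with overlapping matches counted. They are the 250 bases before the annotated start in RefSeq (build GRCr8, which is not the build named for these data), 5′ to 3′ on the plus strand that carries both genes, with matches in capitals. Slc30a1 lies at chr13:106021769-106022018 and Slc39a7 at chr20:4824809-4825058.
Slc30a1: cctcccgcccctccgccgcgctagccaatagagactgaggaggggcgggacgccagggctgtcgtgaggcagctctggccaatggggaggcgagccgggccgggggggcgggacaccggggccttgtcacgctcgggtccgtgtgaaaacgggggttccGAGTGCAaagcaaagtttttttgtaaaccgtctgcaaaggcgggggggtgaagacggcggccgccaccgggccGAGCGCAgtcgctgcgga
Slc39a7: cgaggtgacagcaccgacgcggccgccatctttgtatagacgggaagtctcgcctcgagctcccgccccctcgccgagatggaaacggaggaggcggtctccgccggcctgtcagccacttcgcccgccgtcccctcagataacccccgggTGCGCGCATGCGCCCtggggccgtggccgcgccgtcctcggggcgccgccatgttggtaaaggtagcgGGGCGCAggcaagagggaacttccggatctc
Slc30a1 held 2 matches, beginning 91 and 18 bases before the start, and Slc39a7 held 4, of which 3 lie in 1 run of capitals, the first 2 overlapping and the next adjoining them. Windows of 300 bases, from 250 before to 50 after the start, were found for 112 members, and 58.9% of them held a match, beside 61.4% of 8408 genes of the table and 50.1% of all 27457 promoters. Such short motifs are common, and a match is a description of letters.

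The other zinc carriers lay at middle to high levels. Slc30a9, which acts on mitochondrial zinc, was at 38.2, 31.1, 34.2 and 32.7 RPKM in the controls and 43.96, 39.3, 38.8 and 36.5 RPKM with inhibitor. Control 1 overlapped with the inhibitor range and the other 3 controls lay below it (log2 fold change 0.21 ± 0.08 (SE); limma, unadjusted p = 0.0235). Slc30a5 and Slc30a7, which load zinc into the secretory pathway, were at 30.6 ± 1.57 RPKM across controls and 32.2 ± 2.35 RPKM across inhibitor libraries and at 29.8 ± 2.62 RPKM across controls and 29.1 ± 1.77 RPKM across inhibitor libraries respectively (SD, n = 4). Slc39a1, an importer of the plasma membrane, was at 38.8 ± 5.14 RPKM across controls and 37.6 ± 5.15 RPKM across inhibitor libraries, and Slc39a14, which also carries iron, at 19.6 ± 1.42 RPKM across controls and 20.5 ± 2.55 RPKM across inhibitor libraries (SD, n = 4). Slc39a11, an importer of the same family, is named because its groups did not overlap, a choice made after its values were seen. It was at 8.697, 9.65, 9.59 and 8.73 RPKM in the controls and 7.805, 8.56, 7.35 and 8.58 RPKM with inhibitor, a log2 fold change of -0.17 ± 0.073 (SE) with limma's unadjusted p = 0.0476. The metallothionein gene Mt1, which binds zinc and is a target of MTF-1, was at 4.64 ± 3.03 RPKM across controls and 7.83 ± 3.02 RPKM across inhibitor libraries (SD, n = 4; limma, unadjusted p = 0.0838). Over all 21 metal carriers, 10 log2 fold changes were positive and 11 negative (median -0.01; 8 and 13 with median-of-ratios scaling), with 2 higher and 2 lower at an unadjusted p under 0.05.

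Of the 24 amino acid carriers, 18 had a negative log2 fold change (median -0.05), and without both control 1 and inhibitor 4 it was 14. Over all genes 4886 of 10688 were negative, and 5461 of 10666 without both of those libraries. Their summed level was 1172 ± 164 RPKM across controls and 1048 ± 91.9 RPKM across inhibitor libraries (SD, n = 4), a difference within the spread, and Slc38a5 carried most of both. Its means were 713 ± 156 RPKM across controls and 603 ± 93.1 RPKM across inhibitor libraries (SD, n = 4; log2 fold change -0.23 ± 0.16 (SE); limma, unadjusted p = 0.189). Slc38a10, a relative of the SLC38 transporters, was the 1 member of this role at an unadjusted p under 0.05. It was at 57.1, 54.1, 48.8 and 48.1 RPKM in control libraries 1 to 4 and 44.3, 47.6, 46.1 and 43.8 RPKM in inhibitor libraries 1 to 4. The inhibitor values all lay below the controls, with 0.498 RPKM between control 4 and inhibitor 2 (log2 fold change -0.19 ± 0.069 (SE); limma, unadjusted p = 0.0218).

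Slc43a2, which lets large neutral amino acids leave the cell, was at 29.8 ± 1.69 RPKM across controls and 34.5 ± 5.304 RPKM across inhibitor libraries (SD, n = 4; limma, unadjusted p = 0.0881). Slc1a4, a carrier of serine, alanine and threonine, was at 31.4 ± 2.55 RPKM across controls and 29.05 ± 0.911 RPKM across inhibitor libraries, and Slc38a1, which takes up glutamine, at 14.4 ± 1.09 RPKM across controls and 13.5 ± 0.897 RPKM across inhibitor libraries (SD, n = 4). Slc6a8, which takes up creatine, was at 7.42 ± 0.548 RPKM across controls and 8.098 ± 0.405 RPKM across inhibitor libraries (SD, n = 4). Slc1a3, a glutamate carrier best known from glia, was low at 1.74 ± 0.518 RPKM across controls and 1.796 ± 0.656 RPKM across inhibitor libraries, and Slc7a14, a lysosomal relative of the cationic amino acid carriers, had the lowest mean of all members at 1.17 ± 0.0702 RPKM across controls and 1.096 ± 0.188 RPKM across inhibitor libraries (SD, n = 4). Each of the 5 measured SLC7 members had a negative log2 fold change under both scalings and with limma-voom, which kept the authors' library sizes. Without inhibitor 4, and without both control 1 and inhibitor 4, 4 of 5 did. In the limma fit to the RPKM as scaled by the authors, the largest in size of these 5 was that of Slc7a7. This exchanger of cationic amino acids had -0.12 ± 0.090 (SE). The SLC7 genes set aside by rule are not counted here. Among them Slc7a2 had a positive log2 fold change of 0.47 (limma, unadjusted p = 0.000298). Of all 11 carriers set aside, 6 had a positive value.

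The 22 carriers of the secretory pathway, which are family SLC35 and Slc33a1, had 12 positive and 10 negative log2 fold changes (median 0.06), and at an unadjusted p under 0.05, where 5.52% of all genes lay higher and 3.46% lower, 3 lay higher with inhibitor and 0 lower. Slc35a3, which brings UDP-N-acetylglucosamine into the Golgi for glycan synthesis, was at 14.3, 11.998, 13.7 and 13.7 RPKM in control libraries 1 to 4 and 16.8, 15.2, 14.8 and 15.4 RPKM in inhibitor libraries 1 to 4. All inhibitor libraries lay above all controls (log2 fold change 0.20 ± 0.071 (SE); limma, unadjusted p = 0.0186). Slc35a5, a relative of the nucleotide sugar carriers, was at 7.22, 6.77, 6.45 and 7.47 RPKM in the controls and 8.14, 8.003, 7.36 and 8.13 RPKM with inhibitor. Control 4 overlapped with inhibitor 3 (log2 fold change 0.16 ± 0.069 (SE); limma, unadjusted p = 0.0443). Slc35g1, of a more distant branch of the family, was at 19.4, 13.1, 14.6 and 16.3 RPKM in the controls and 19.6, 21.1, 17.2 and 19.1 RPKM with inhibitor. Control 1 lay inside the inhibitor range, the other 3 controls below it (log2 fold change 0.28 ± 0.11 (SE); limma, unadjusted p = 0.0344). Slc35b1, the most abundant of this role, had means of 108 ± 10.5 RPKM across controls and 103 ± 1.27 RPKM across inhibitor libraries, and Slc33a1, which brings acetyl-CoA into the endoplasmic reticulum, of 39.2 ± 6.22 RPKM across controls and 40.5 ± 0.779 RPKM across inhibitor libraries (SD, n = 4). Slc35f5 was at 28.6 ± 2.599 RPKM across controls and 30.3 ± 1.47 RPKM across inhibitor libraries (SD, n = 4). Without inhibitor 4 the role had 10 positive and 12 negative values, and without both control 1 and inhibitor 4 it had 11 of each.

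Among 15 carriers of sugars and organic acids, 0 reached an unadjusted p under 0.05, with 9 positive and 6 negative log2 fold changes (median 0.07). Slc37a4 takes glucose 6-phosphate into the endoplasmic reticulum, where it is split to glucose. It was at 39.8, 37.01, 39.6 and 41.5 RPKM in control libraries 1 to 4 and 50.6, 54.1, 43.2 and 38.05 RPKM in inhibitor libraries 1 to 4. Inhibitor 1 and 2 were the highest, inhibitor 4 lay below all but 1 control, and the groups overlapped (log2 fold change 0.22 ± 0.10 (SE); limma, unadjusted p = 0.061). Slc16a12, a creatine transporter of the monocarboxylate family, was at 45.6 ± 3.54 RPKM across controls and 45.3 ± 4.48 RPKM across inhibitor libraries, and Slc50a1, a sugar transporter, at 37.4 ± 1.42 RPKM across controls and 40.6 ± 4.07 RPKM across inhibitor libraries (SD, n = 4). Slc16a10, which carries aromatic amino acids, was at 11.1 ± 0.957 RPKM across controls and 12.2 ± 1.03 RPKM across inhibitor libraries (SD, n = 4). The measured members of the glucose transporter family SLC2 named by the rule were low. Slc2a8 of intracellular membranes was at 5.45 ± 0.415 RPKM across controls and 5.697 ± 0.818 RPKM across inhibitor libraries, the proton-coupled inositol carrier Slc2a13 at 2.64 ± 0.479 RPKM across controls and 2.83 ± 0.363 RPKM across inhibitor libraries and the fructose carrier Slc2a5 at 1.17 ± 0.253 RPKM across controls and 1.14 ± 0.34 RPKM across inhibitor libraries (SD, n = 4).

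The 23 carriers of organic ions, vitamins, lipids and nucleosides had 8 positive and 15 negative log2 fold changes (median -0.05; 5 and 18 with median-of-ratios scaling), with 2 lower at an unadjusted p under 0.05. Slc46a1 encodes the proton-coupled folate transporter, which absorbs folate in the gut. It was at 3.598, 3.73, 2.97 and 3.12 RPKM in control libraries 1 to 4 and 2.04, 1.97, 2.35 and 2.68 RPKM in inhibitor libraries 1 to 4, from 111 to 223 reads per library. Every inhibitor library lay below every control library. The means were 3.35 ± 0.367 RPKM across controls and 2.26 ± 0.326 RPKM across inhibitor libraries (SD, n = 4), a ratio of 0.673 and a log2 fold change of -0.42 ± 0.099 (SE), with limma's unadjusted p = 0.00189 and adjusted p = 0.541. Leaving out each library in turn gave between -0.48 and -0.38, with an unadjusted p between 0.000971 and 0.00738. Its upstream sequence is shown as that of the member with the smallest p among those lower with inhibitor, with the palindromic cAMP response element TGACGTCA in capitals, 157 bases before the start. The 250 bases lie at chr10:63859301-63859550 of GRCr8, plus strand, from RefSeq.
Slc46a1: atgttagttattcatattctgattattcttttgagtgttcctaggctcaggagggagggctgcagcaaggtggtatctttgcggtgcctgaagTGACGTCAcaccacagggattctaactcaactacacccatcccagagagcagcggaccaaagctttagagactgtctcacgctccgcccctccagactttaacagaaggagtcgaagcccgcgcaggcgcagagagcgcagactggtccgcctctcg
This element was found in 1.79% of the 112 member windows of 300 bases and in 3.39% of the 8408 table windows, on both strands.

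Slc27a4, a fatty acid transport protein that activates long-chain fatty acids, was at 18.1, 18.8, 17.1 and 15.3 RPKM in the controls and 13.2, 16.1, 13.9 and 14.6 RPKM with inhibitor. Control 4 was the 1 control inside the inhibitor range (log2 fold change -0.25 ± 0.082 (SE); limma, unadjusted p = 0.0143). Slc29a4 had no such difference beyond its spread (limma, unadjusted p = 0.744). Slc44a1, a choline carrier, was at 24.6 ± 1.73 RPKM across controls and 24.9 ± 1.98 RPKM across inhibitor libraries, and Slc10a3, of the bile acid carrier family, at 18.5 ± 0.406 RPKM across controls and 18.01 ± 1.08 RPKM across inhibitor libraries (SD, n = 4).

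The role of vesicle transmitter carriers, assigned by family, held 5 members of SLC17 and SLC18, and the lysosomal Slc17a5 is counted among them. Slc18b1, a vesicular polyamine transporter, was at 5.68, 5.67, 4.92 and 6.16 RPKM in the controls and 7.51, 7.29, 5.58 and 6.803 RPKM with inhibitor. Inhibitor 3 lay within the control range and the other 3 above it (log2 fold change 0.24 ± 0.098 (SE); limma, unadjusted p = 0.0387). Slc18a1, the vesicular monoamine transporter VMAT1, was at 11.4, 6.102, 7.57 and 6.904 RPKM in the controls and 9.12, 7.47, 7.01 and 6.59 RPKM with inhibitor, highest in control 1 and overlapping between the groups. Slc17a9, which loads ATP into vesicles, was the most abundant of the 5 at 14.7 ± 1.24 RPKM across controls and 14.3 ± 0.832 RPKM across inhibitor libraries, and Slc17a5, the lysosomal sialic acid carrier, was at 9.93 ± 0.683 RPKM across controls and 9.13 ± 0.195 RPKM across inhibitor libraries (SD, n = 4).

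The 3 adaptors are not carriers themselves. Slc9a3r1 (NHERF1), which tethers transporters to the cortical cytoskeleton, was at 6.47, 6.08, 5.13 and 5.402 RPKM in the controls and 5.03, 4.55, 3.94 and 5.34 RPKM with inhibitor. Control 3 and inhibitor 4 overlapped (log2 fold change -0.25 ± 0.10 (SE); limma, unadjusted p = 0.0343). Its paralog Slc9a3r2 (NHERF2) was at 5.19 ± 0.596 RPKM across controls and 4.19 ± 1.26 RPKM across inhibitor libraries, and Slc4a1ap (kanadaptin) at 9.28 ± 0.585 RPKM across controls and 9.68 ± 0.4 RPKM across inhibitor libraries (SD, n = 4).

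In most members the spread within a group exceeded the difference between the groups: the groups overlapped in 135 members, and in 108 the means differed by less than the larger of the 2 SDs. In 31 members the highest library exceeded the lowest more than 1.5 times (RPKM + 1). The 5 with the widest range were Slc12a2, Slc16a3, Slc1a2, Slc2a3 and Slc16a14, and control 1 or inhibitor 4 was at 1 end or both in each. Slc1a2, the main glutamate carrier of astrocytes and also known in islet cells, was at 3.31, 3.93, 3.59 and 3.62 RPKM in control libraries 1 to 4 and 3.58, 4.81, 4.398 and 9.39 RPKM in inhibitor libraries 1 to 4. Inhibitor 4 lay far above the other 7 libraries, which overlapped (log2 fold change 0.43 ± 0.21 (SE); limma, unadjusted p = 0.0722). Slc2a3, a high-affinity glucose carrier, was at 2.24, 4.74, 4.33 and 6.24 RPKM in the controls and 4.78, 3.96, 4.78 and 6.21 RPKM with inhibitor. Slc16a3, which exports lactate, was at 1.501, 4.25, 2.78 and 4.32 RPKM in the controls and 2.804, 2.86, 2.89 and 5.27 RPKM with inhibitor. Both were lowest in control 1, the library with the lowest mesenchymal sum, and both were high in control 4, whose mesenchymal sum was 3804 RPKM. The other libraries followed that order only in part. Inhibitor 2, with the next lowest sum (2108 RPKM), had the next lowest Slc2a3 (3.96 RPKM). Slc16a3 was highest in inhibitor 4, control 4 and control 2, the libraries with the highest sums. Within these the order differed: control 2 had the highest mesenchymal sum (3856 RPKM), with Slc2a3 at 4.74 RPKM, below control 4. The sum of inhibitor 4, where Slc16a3 was highest, was 3260 RPKM. Slc16a14, an orphan of the monocarboxylate family, ran the other way at 16.2, 10.5, 11.4 and 11.9 RPKM in the controls and 14.1, 14.4, 10.9 and 7.44 RPKM with inhibitor, highest in control 1 and lowest in inhibitor 4. The part of other cell types in these levels was not tested. Over all members, control 1 was the highest library for 28 and the lowest for 27, and inhibitor 4 for 27 and 30. These make 19.5% and 20.2% of the members' extremes, against 21.6% and 18.4% over all genes.

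**Figure D4:**
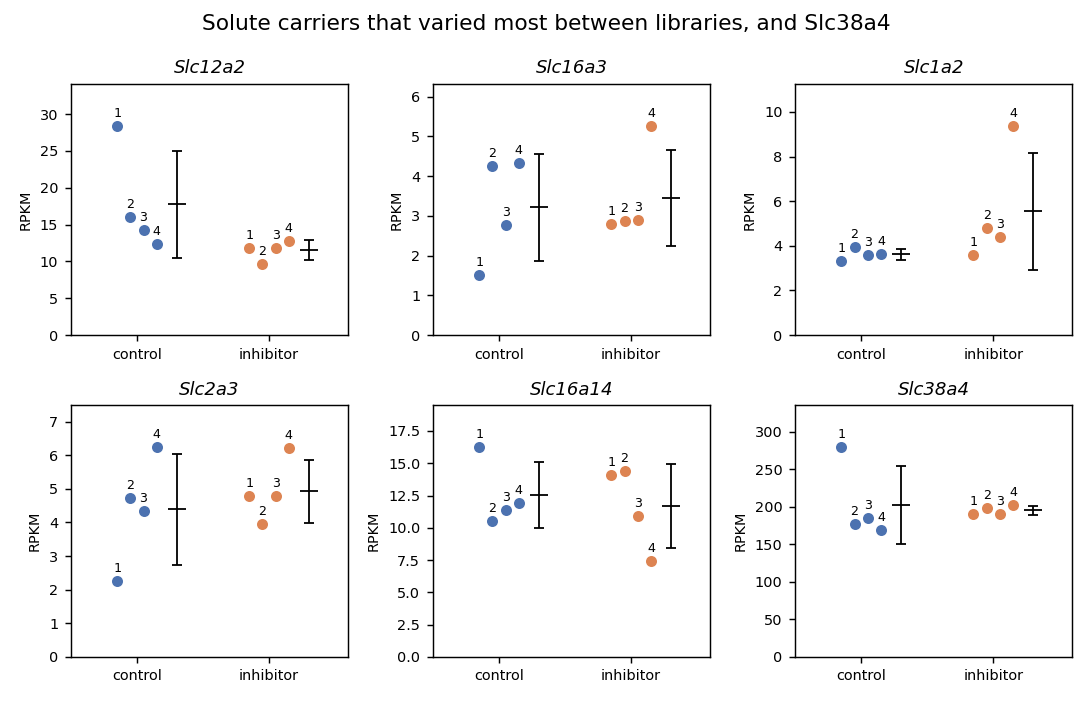
RPKM of the 5 solute carriers with the widest range over libraries, and of Slc38a4; points are libraries labelled by number and bars are the mean and SD (n = 4). Control 1 is the highest in Slc12a2, Slc16a14 and Slc38a4 and the lowest in Slc2a3 and Slc16a3, and inhibitor 4 is the highest in Slc1a2 and the lowest in Slc16a14.

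Genes that power or guide the carriers were listed as well. Of 9 tested ion pumps, 4 log2 fold changes were positive and 5 negative, with 0 called by limma at an adjusted p under 0.05 and, at an unadjusted p under 0.05, 0 higher and 1 lower (beside 5.52% and 3.46% of all genes, as for the next lists). Of 13 chaperones and regulators of carriers, 6 were positive and 7 negative, 0 were called, and 2 lay higher and 1 lower at an unadjusted p under 0.05. Emb (embigin), an ancillary protein of monocarboxylate carriers, was at 112 ± 11.002 RPKM across controls and 132 ± 8.22 RPKM across inhibitor libraries, and Wnk4, a kinase of the pathway that controls cation-chloride cotransporters, at 1.46 ± 0.133 RPKM across controls and 1.07 ± 0.204 RPKM across inhibitor libraries (SD, n = 4; limma, unadjusted p = 0.019 and 0.0269). Sgk3, a kinase that regulates several carriers, was at 3.42 ± 0.441 RPKM across controls and 4.45 ± 0.841 RPKM across inhibitor libraries (SD, n = 4; limma, unadjusted p = 0.0377). A further list of 18 tested genes, carriers with other names and the zinc-responsive gene Mt1, had 12 positive and 6 negative values, 0 calls, 1 higher and 1 lower at an unadjusted p under 0.05, and 3 without overlap between the groups, beside 5.31% of all genes. The pumps had 0 and the chaperones and regulators 1 without overlap. Mfsd8, a lysosomal membrane protein, was at 4.32 ± 0.236 RPKM across controls and 5.54 ± 0.395 RPKM across inhibitor libraries and Slco3a1, an organic anion carrier, at 18.6 ± 1.93 RPKM across controls and 14.6 ± 1.41 RPKM across inhibitor libraries (SD, n = 4; limma, unadjusted p = 0.00249 and 0.00463).

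In the authors' deposited table, 0 of the 141 members had an adjusted p under 0.05, beside 6 of all rows. At an unadjusted p under 0.05 the authors' deposited table listed 13 members (9.22%), beside 7.49% of all rows. Slc46a1 had p = 0.000271 and adjusted p = 0.0772 in the authors' deposited table, whose test is not given in the sources used here.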

How the data were processed

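Messenger RNA of cultured islet cells was measured in 8 libraries. The deposited RPKM were scaled per kilobase of gene and to library size by the authors, per the file headers. Tools named in the submitters' processing notes are HTSeq, HISAT2 2.1.0, RSEM 1.3.0 and STAR 2.5.3a, and the genome build is rn6. Their roles, the gene annotation and the handling of strand are not given in the sources used here, so reads of overlapping genes may be mixed. The log2 fold change, the fold (a ratio), the p-value and the adjusted p-value in the deposited table are the authors' own and were only quoted.

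Values of log2(RPKM + 1) entered a limma fit (version 3.58.1, R 4.3.3) with group as the term and an intensity trend. It took in 10688 genes, those reaching 1 RPKM in 4 or more libraries, and its two-sided p-values were adjusted over all of them by the Benjamini-Hochberg method at 0.05. Fold changes on this scale understate changes of low genes. Whole reads were recovered from the RPKM for 10692 of 10692 rows (tolerance 0.0001) and served for depth and for limma-voom. The steps were tested on simulated data. The alternatives were a pseudocount of 0.1, no filter, median-of-ratios scaling, limma-voom, the replicate number as a block, each library left out, and both control 1 and inhibitor 4 left out.

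Roles were assigned by carrier family, apart from the adaptors, so a role can hold carriers of other substrates. The text names the 15 members with the highest mean RPKM, in each direction the 8 of lowest unadjusted p, the 3 most abundant of each role, the 5 with the widest range over libraries, and 37 measured members of a list of 47 carriers of interest in islets, which makes 59. A few genes that these rules pick are not reported here, but counts over all genes include them. Slc39a11 and Slc7a7 were added after their values were seen, as were the genes named from the lists of pumps, regulators and other carriers, which were those under an unadjusted p of 0.05 together with Mt1. Members, lists and tests were chosen with earlier results of these data known. Counts of members are descriptions, read against the share over all genes.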

Additional observations from a re-analysis of the deposited data

Results flagged for a closer look

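Over 118 groups of 4 libraries (59 named members, control and inhibitor), 4 held a library far from the other 3 by Dixon's criterion at 95%. Chance alone gives about 1 in 20 such groups, or 5.9. Slc38a4 was at 279 RPKM in control 1 against 169 to 185 RPKM in the other controls. Slc1a4, the carrier of serine and alanine, was at 27.6 RPKM in control 1 against 32.2 to 33.01 RPKM in the other controls. Slc30a5, which loads zinc into the secretory pathway, was at 28.7 RPKM in inhibitor 3 against 33.02 to 33.7 RPKM in the other inhibitor libraries. Slc16a3, the lactate exporter, was at 5.27 RPKM in inhibitor 4 against 2.80 to 2.89 RPKM in the others.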

How the results depend on the processing

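Under every alternative run, limma or limma-voom called 0 of the 141 carriers, 0 of all genes and 0 of the pumps, regulators and other carriers at an adjusted p under 0.05. The 16 carriers whose fold changes are quoted as closest to the threshold kept their direction in all 224 values under the alternatives. They were chosen for their small p in these same data, and the alternatives reuse the same libraries. The kept direction was therefore nearly fixed in advance and is no independent support. Leaving out each library in turn gave between 3 and 18 carriers at an unadjusted p under 0.05, between 7 and 18 without overlap (more are due by construction with fewer libraries), a median log2 fold change between -0.026 and -0.0029 and a median level between 8.94 and 9.21 RPKM. Without both control 1 and inhibitor 4 there were 26 carriers at an unadjusted p under 0.05 (15.9% of all genes) and 37 without overlap (20.9% of all genes), and the cause was not tested. With the replicate number as a block, 18 carriers were at an unadjusted p under 0.05 (10.4% of all genes). Same-numbered libraries had correlations of deviations between -0.27 and 0.45, and 2 of the 4 control libraries correlated best with their own number, so the numbers were not taken to pair the libraries. At the lowest levels depth limits the result: the member with the fewest reads had 30 in a library.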

Other observations

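The RefSeq windows of 300 bases around the start (build GRCr8), found for 112 of the 141 carriers, had a median GC content of 63.7%, beside 61.7% for 8408 genes of the table and 52.3% for all 27457 promoters. On both strands, the TATA box TATAAA was present in 1.79% of the carrier windows and 5.95% of the table windows. The E-box CACGTG was present in 15.2% and 9.53%, the ETS motif CCGGAAGT in 1.79% and 8.92%, and the amino acid response element TGATGNAA in 4.46% and 1.77%. The GC box GGGCGG (66.1% and 65.1%) and the CCAAT box CCAAT (34.8% and 37.7%) were about as common in both. These shares were not tested, and a match describes letters in the window.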
